A study of Mus musculus with 72 samples.

Results

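Livers of male C57BL/6 mice that carried loxP-flanked Bmal1 and Albumin-cre (Bmal1 fl/fl Albumin-Cre, here LKO mice) were compared between ZT10, late in the light phase, and ZT22, late in the dark phase. All mice of this comparison were kept with their microbes under specific pathogen-free (SPF) conditions. ZT, zeitgeber time, counts hours from lights on. The members were chosen by their labels alone, 3 libraries labelled SPF LKO ZT10 and 3 labelled SPF LKO ZT22, or 6 of the 72 libraries of the series, which covered LKO and Bmal1 fl/fl (WT) mice, SPF and germ-free (GF) conditions and 6 ZT with 3 libraries each. WT mice shared the loxP-flanked alleles and lacked the cre. Albumin-cre acts in hepatocytes, so that other liver cells of an LKO mouse, and the clocks of all other organs, keep Bmal1. The question of the comparison was which transcripts still differed between late day and late night in a liver whose hepatocytes lack Bmal1. The same times in SPF WT mice (6 libraries) and in GF LKO mice (6 libraries) served for contrast.

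In the mammalian clock BMAL1 pairs with CLOCK or NPAS2 and activates genes through E-boxes, among them the Per and Cry genes, whose products inhibit the pair. Nr1d1 and Nr1d2 encode the REV-ERB repressors, which lower Bmal1, Clock and Npas2, and Dbp, Tef and Hlf encode activators that act at D-boxes. A liver whose hepatocyte clock is lost still receives signals that vary over the day, such as feeding, hormones and body temperature. Liver is also the main site of cholesterol and fatty acid synthesis after meals, and of fatty acid oxidation between meals.

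The 6 libraries held 18766956 to 22076113 counts (median 19836845), and 5.21 to 6.10% of them came from mitochondrial genes. No pair of libraries in the series held identical counts. Levels are CPM, counts scaled to a library of 1000000 with edgeR's TMM factors, and log2 fold changes are ZT10 against ZT22, so that a negative value is a lower level at ZT10. Over the 500 most variable genes the first principal component took 38.2% of the variance and held the ZT10 libraries at -13.6, -6.2 and -15.3 and the ZT22 libraries at 11.3, 13.1 and 10.6, without overlap. All 8 hepatocyte markers were detected, and their summed level was 68436 to 77754 CPM at ZT10 and 53681 to 54301 CPM at ZT22. Such a sum follows its most abundant members, and log2 fold changes were positive for 6 markers and negative for 2 (median 0.26). None of the 12 marker lists held a gene past the test. In whole liver, fewer cells of a type and less RNA per cell cannot be told apart.

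Bmal1, listed as Arntl (chromosome 7 of GRCm38), is the deleted gene, but a single count for the whole gene also takes in exons that are not removed, so that its level does not check the genotype. Arntl was at 8.52, 9.46 and 9.11 CPM at ZT10 and 16.5, 13.7 and 12.3 CPM at ZT22 in SPF LKO mice. In SPF WT mice it was at 1.82, 1.39 and 0.624 CPM at ZT10 and at 33.3, 39.7 and 35.2 CPM at ZT22. Arntl thus spanned a far wider range in WT mice, and the difference between genotypes was 4.18 ± 0.31 (SE) on the log2 scale (adjusted p = 2.18e-08), while the change within SPF LKO mice did not pass the test (log2 fold change -0.65, adjusted p = 0.11).

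Of 14004 genes tested, 133 (0.950%) differed between the times in SPF LKO mice at an adjusted p under 0.05 by edgeR's quasi-likelihood test. They comprised 49 genes higher at ZT10 (0.350%) and 84 genes lower at ZT10 (0.600%). DESeq2 called 475 genes, 224 higher and 251 lower. Log2 fold changes of the 133 genes had a median size of 0.88 and reached 2.90, and 53 were of at least 1. At an unadjusted p under 0.05 there were 2398 genes. Values of the 2 times did not overlap for 132 of the 133 genes, against 23.6% of all genes tested. Separation of the times thus adds little to the call of a gene. The number of calls depended on single libraries. The count was 7 without ZT22 replicate 2, 8 without ZT10 replicate 3, 44 without ZT10 replicate 1, 71 without ZT10 replicate 2, 75 without ZT22 replicate 3 and 172 without ZT22 replicate 1. All 133 genes kept their direction in all 6 of these fits, which follows largely from times without overlap in 132 of them. Only 3, among them Nr1d2 and Dbp, stayed past the threshold in each of these fits. Labels give 3 separate samples per time. The p-values rest on the spread between samples within a group, pooled over the 8 groups of the 24 libraries of ZT10 and ZT22. With only the 6 SPF LKO libraries the count was 105, of which 63 were among the 133 genes. It was 14 with the 12 SPF libraries.

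Among the 19 genes of the core clock, 2 rose at ZT10 (Nr1d2 and Dbp), 1 fell (Npas2) and 16 did not pass the test. Of all genes tested, 0.950% passed. The median log2 fold change of the list was 0.02, against -0.01 over all genes tested. Nr1d2 (ENSMUSG00000021775, chromosome 14, 18204054 to 18239127), which encodes REV-ERB beta, was at 27.2, 39.7 and 22.3 CPM at ZT10 and at 8.23, 7.84 and 10.1 CPM at ZT22. Its log2 fold change of 1.78 ± 0.18 (SE) had the smallest adjusted p of all genes (1.85e-05). The lowest value at ZT10 was far above the highest at ZT22.

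Dbp (chromosome 7, 45705088 to 45710203), which encodes a D-box activator, was at 9.57, 8.23 and 5.70 CPM at ZT10 and at 1.81, 2.87 and 1.49 CPM at ZT22, a log2 fold change of 1.92 ± 0.33 (adjusted p = 0.013). Npas2, the partner of BMAL1 that can stand in for CLOCK, was at 14.4, 19.3 and 16.6 CPM at ZT10 and at 28.2, 34 and 23.5 CPM at ZT22 (log2 fold change -0.77 ± 0.18, adjusted p = 0.042). Npas2 was past the threshold in 1 of the 6 fits with a library left out, with adjusted p reaching 0.21 without ZT22 replicate 2. For both genes all ZT10 values lay on one side of all ZT22 values. The span of Dbp overlaps a coding gene on the other strand. Counted without strand, Dbp may take in reads of that gene or lack reads dropped as ambiguous.

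The other 16 clock genes did not pass the test, although several were separated by time. Of all 19, 10 had an unadjusted p under 0.05, against 2398 of the 14004 genes tested. The times did not overlap for 4 clock genes higher and 6 lower at ZT10, while 23.6% of all genes tested had no overlap. Nr1d1, which encodes REV-ERB alpha, was at 4.51, 5.57 and 3.02 CPM at ZT10 and at 1.35, 1.31 and 1.53 CPM at ZT22, without overlap, yet did not pass the test (log2 fold change 1.64 ± 0.48, adjusted p = 0.089). Tef was at 118, 137 and 117 CPM at ZT10 and at 94.3, 90.8 and 91.8 CPM at ZT22 (log2 fold change 0.43, adjusted p = 0.064). Ciart, a repressor of the clock, had a fitted log2 fold change of 2.53 on 5 to 31 counts per library at ZT10 and 1 to 7 at ZT22 (adjusted p = 0.083).

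Per1, which also responds to hormones and feeding, was at 24.4, 28.1 and 27.9 CPM at ZT10 and at 4.22, 8.52 and 33 CPM at ZT22, so that replicate 3 at ZT22 exceeded every ZT10 value. Clock (log2 fold change -0.03), Per2 (-0.07), Hlf (0.02) and Nfil3 (-0.03) had fitted values near 0, with adjusted p of at least 0.899. Per3 (0.56), Cry1 (-0.31), Cry2 (-0.32), Rora (-0.34), Bhlhe40 (0.27) and Bhlhe41 (1.57) had adjusted p from 0.20 to 0.58. Of the cold-inducible RNA-binding proteins, whose transcripts follow body temperature, neither Cirbp (log2 fold change 0.25, adjusted p = 0.60) nor Rbm3 (0.08, adjusted p = 0.89) passed the test.

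**Figure D1:**
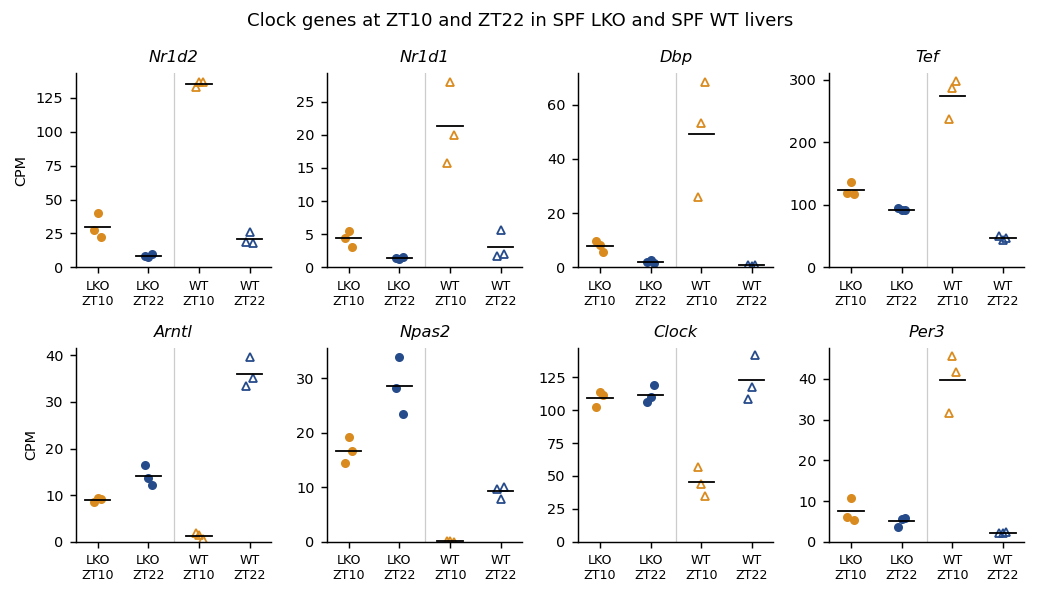
Level of 8 clock genes (y axis, CPM, from 0) in each SPF LKO library (filled circles) and SPF WT library (open triangles) at ZT10 (orange) and ZT22 (blue), with the mean of 3 libraries as a bar. In LKO livers Nr1d2, Nr1d1, Dbp and Tef lay above their ZT22 values at ZT10 in every library, over a smaller range than in WT livers.

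Nr1d2 and Dbp also rose at ZT10 in SPF WT mice, to higher peaks. Nr1d2 was at 135 ± 2.19 CPM (SD, n = 3) at ZT10 and 21.1 ± 4.53 CPM at ZT22 in WT mice, and its log2 fold changes of 2.68 in WT and 1.78 in LKO mice did not differ past the threshold (adjusted p = 0.076). Dbp reached 49.2 ± 21.4 CPM (SD, n = 3) at ZT10 in WT mice and 0.747 ± 0.190 CPM at ZT22, and its log2 fold change was smaller in LKO than in WT mice by 4.11 (a difference of -4.11 ± 0.52, adjusted p = 7.58e-05). Dbp thus fell less far at ZT22 and rose less far at ZT10 without hepatocyte Bmal1.

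The start of Nr1d2 is shown because this gene carried the firmest difference. Its 250 bases before the RefSeq start (GRCm38.p6, chr14:18239107-18239356, minus strand) hold no E-box in the letters CACGTG on either strand. All promoter windows of the table, 300 bases long and so longer than the stretch shown, hold an E-box in 7.15% of cases. The share was 9.63% in the windows matched to tested genes and 28.6% in the 21 windows of the core clock list.

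Nr1d2: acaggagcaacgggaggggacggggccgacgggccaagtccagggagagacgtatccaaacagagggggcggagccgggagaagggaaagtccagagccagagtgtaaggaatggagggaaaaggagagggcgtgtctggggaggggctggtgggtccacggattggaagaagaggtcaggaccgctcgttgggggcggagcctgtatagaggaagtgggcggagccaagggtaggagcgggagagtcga

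Genes of cholesterol synthesis and uptake were the list with the lowest median. Of 25 genes tested, 5 fell at ZT10, 0 rose and 20 did not pass the test, while 0.600% of all genes fell and 0.350% rose. Of the 25 fitted values 23 were negative, with a median log2 fold change of -0.86, against -0.01 over all genes. The sterol genes that fell included Mvd, Lss, Dhcr7 and Pmvk. The members run from Hmgcs1, which makes HMG-CoA, over Mvk, Pmvk and Mvd, the mevalonate kinases and decarboxylase, to Lss, which closes the sterol rings, and Dhcr7, which takes the last step to cholesterol.

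Mvd was at 17.6, 4.34 and 10.6 CPM at ZT10 and at 34.2, 41 and 25.7 CPM at ZT22 (log2 fold change -1.64 ± 0.39, adjusted p = 0.046). Lss was at 59.7, 27.3 and 47.6 CPM at ZT10 and at 110, 147 and 87.7 CPM at ZT22 (-1.35 ± 0.28, adjusted p = 0.025). Dhcr7 was at 65.2, 33 and 41.2 CPM at ZT10 and at 92.2, 156 and 81.3 CPM at ZT22 (-1.24 ± 0.26, adjusted p = 0.024). In these 3 genes replicate 2 was the lowest library at ZT10 and also the highest at ZT22, and the times did not overlap.

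Pmvk was at 53.4, 25.5 and 39 CPM at ZT10 and at 95.5, 84.4 and 76.5 CPM at ZT22 (-1.12 ± 0.24, adjusted p = 0.026). Pmvk was likewise separated by time in every library, with a narrow spread at ZT22. Of the genes that did not pass, Hmgcs1 had a log2 fold change of -0.96 (adjusted p = 0.19), Fdps of -1.24 (0.072), Insig1 of -0.86 (0.061) and Srebf2, the regulator of the pathway, of -0.64 (0.086).

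The number of sterol genes called was 12 without ZT10 replicate 1, 4 without ZT22 replicate 3, 2 without ZT22 replicate 1 and 0 without ZT10 replicate 2, ZT10 replicate 3 or ZT22 replicate 2. The median of the same list was -0.58 in SPF WT mice and -0.36 in GF LKO mice. Only Pmvk of the 5 genes that fell also passed in either of those groups, with a log2 fold change of -1.07 in SPF WT mice (adjusted p = 0.007) and -0.85 in GF LKO mice (adjusted p = 0.036).

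Sterol-regulated promoters are known for the sterol element TCACCCCAC, and 1 of the 22 promoter windows found for 17 of the list's 25 genes, that of Hmgcs1, holds these letters, as do 0.551% of all windows. Hmgcs1 is shown with the element in capitals, 137 bases before the start (250 bases, GRCm38.p6, chr13:119690101-119690350, plus strand).

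Hmgcs1: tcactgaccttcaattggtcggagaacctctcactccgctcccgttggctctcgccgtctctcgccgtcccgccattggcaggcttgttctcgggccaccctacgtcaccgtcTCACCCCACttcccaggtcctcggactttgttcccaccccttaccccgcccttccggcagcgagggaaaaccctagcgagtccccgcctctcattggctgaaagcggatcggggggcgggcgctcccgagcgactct

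**Figure D2:**
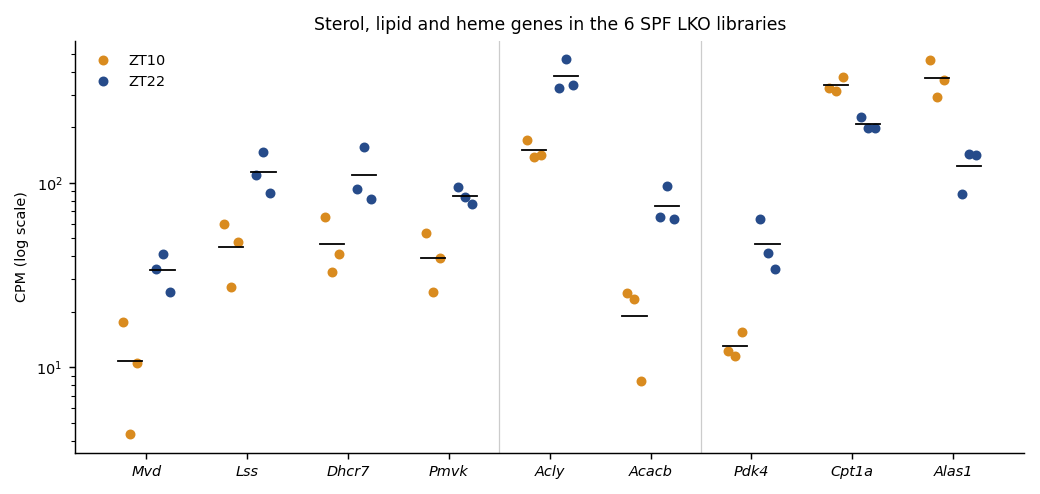
Level (y axis, CPM on a log scale) of 4 sterol genes, 2 genes of fatty acid synthesis, Pdk4, Cpt1a and Alas1 in the 3 ZT10 (orange) and 3 ZT22 (blue) SPF LKO libraries, with the mean as a bar. The first 7 genes were lower at ZT10 in every library and Cpt1a and Alas1 were higher.

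In fatty acid synthesis, Acly and Acacb were lower at ZT10. Of 15 lipogenesis genes tested, 2 fell at ZT10, 0 rose and 13 did not pass, while 0.600% of all genes fell and 0.350% rose. Of the 15 values 14 were negative, with a median of -0.64, against -0.01 over all genes. Acly, which makes cytosolic acetyl-CoA from citrate, was at 170, 138 and 142 CPM at ZT10 and at 325, 467 and 341 CPM at ZT22 (log2 fold change -1.33 ± 0.25, adjusted p = 0.017). Acacb, the acetyl-CoA carboxylase whose malonyl-CoA restrains fatty acid entry into mitochondria, was at 25.1, 23.5 and 8.43 CPM at ZT10 and at 65.1, 95.9 and 63.5 CPM at ZT22 (-1.97 ± 0.41, adjusted p = 0.024). In both genes every ZT22 library exceeded every ZT10 library, and 132 of the 133 genes called had no overlap.

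Fasn, the fatty acid synthase, had a log2 fold change of -1.59 and missed the threshold (adjusted p = 0.064), as did Acaca (-0.80, adjusted p = 0.12) and Elovl6 (-0.74, adjusted p = 0.13). The 2 calls were lost without ZT10 replicate 3 and without ZT22 replicate 2. In SPF WT mice Acly was at 196 ± 72.7 CPM (SD, n = 3) at ZT10 and 237 ± 68.4 CPM at ZT22, a log2 fold change of -0.28, and the difference between genotypes did not pass (adjusted p = 0.21). In GF LKO mice Acly fell by 1.06 on the log2 scale (adjusted p = 0.017) and Acacb by 1.69 (adjusted p = 0.018).

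Genes outside the lists that act in the same chemistry were noticed after their values were seen. Gpam, which starts glycerolipid synthesis, was at 185, 159 and 177 CPM at ZT10 and at 361, 412 and 313 CPM at ZT22 (-1.06 ± 0.18, adjusted p = 0.010). Acsl3, which activates fatty acids, was at 26.7, 19.2 and 26.9 CPM at ZT10 and at 45.3, 50.8 and 43.2 CPM at ZT22 (-0.94, adjusted p = 0.015). The times did not overlap for either gene, as for 132 of the 133 genes called.

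Of 31 genes of fatty acid oxidation and ketogenesis, 1 rose at ZT10 (Cpt1a), 1 fell (Pdk4) and 29 did not pass, with a median log2 fold change of 0.18. Of all genes tested, 0.950% passed. Cpt1a, which carries long-chain fatty acids into mitochondria, was at 329, 315 and 376 CPM at ZT10 and at 229, 198 and 199 CPM at ZT22 (0.71 ± 0.17, adjusted p = 0.046). Pdk4, a kinase that turns off pyruvate dehydrogenase, was at 12.2, 11.5 and 15.4 CPM at ZT10 and at 63.7, 41.8 and 33.9 CPM at ZT22 (-1.83 ± 0.32, adjusted p = 0.013). Cpt1a and Pdk4, both known targets of PPAR alpha, thus moved in opposite directions.

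Pdk4 was past the threshold in 5 of the 6 fits with a library left out and Cpt1a in 1. The fitted values had the same signs in SPF WT mice (Pdk4 -2.69, Cpt1a 0.75) and in GF LKO mice (Pdk4 -1.05, Cpt1a 1.33), although Pdk4 in GF LKO mice had an adjusted p of 0.054 and did not pass. Also noticed after their values were seen, Slc27a2, a fatty acid transporter and acyl-CoA synthetase, was at 1230, 1337 and 1467 CPM at ZT10 and at 914, 767 and 793 CPM at ZT22 (0.71, adjusted p = 0.021), and Eci2, which handles unsaturated fatty acids, was at 181, 188 and 211 CPM and at 135, 97.7 and 105 CPM (0.78, adjusted p = 0.025). Acot12, an acetyl-CoA thioesterase, was at 181, 182 and 198 CPM and at 127, 120 and 112 CPM (0.65, adjusted p = 0.013).

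**Figure D3:**
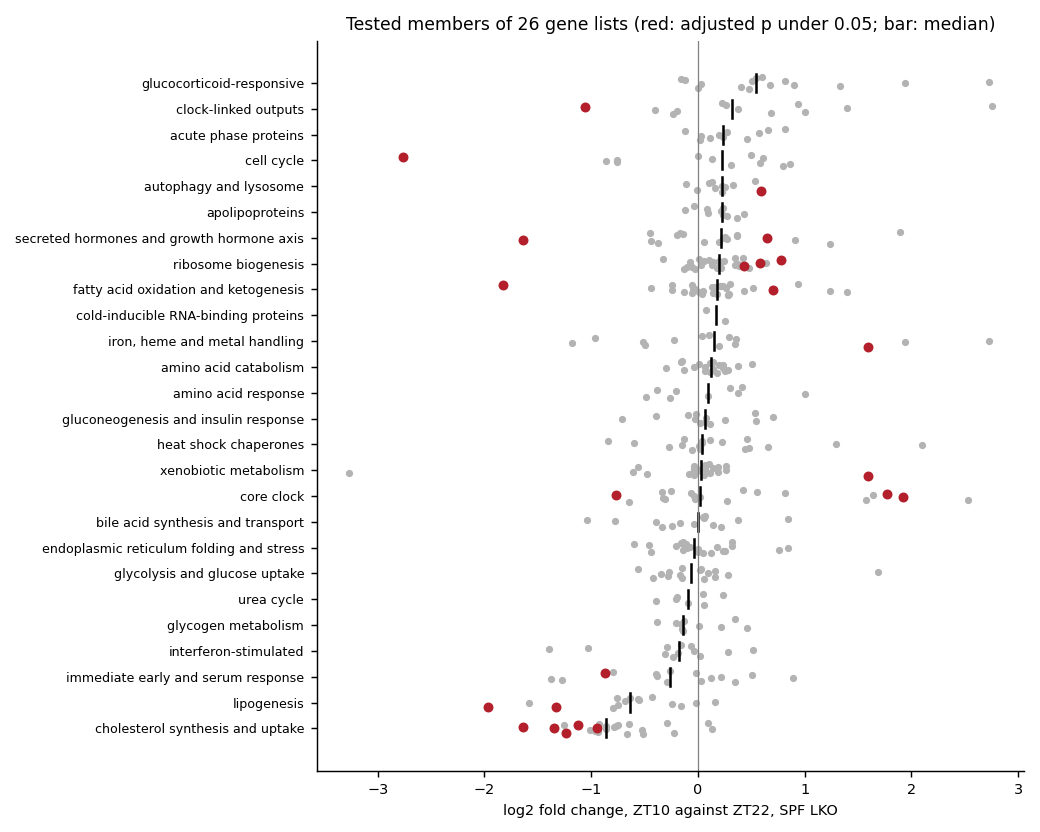
Log2 fold change of ZT10 against ZT22 in SPF LKO mice (x axis) for the tested members of 26 gene lists (rows), in red where the adjusted p was under 0.05, with the list's median as a bar. Sterol synthesis and lipogenesis have the lowest medians, -0.86 and -0.64, and glucocorticoid-responsive genes the highest, 0.54, with 0 genes past the test.

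Alas1, the rate-limiting enzyme of heme synthesis, was among the largest increases of an abundant transcript. It was at 463, 293 and 359 CPM at ZT10 and at 87.4, 143 and 141 CPM at ZT22 (log2 fold change 1.59 ± 0.30, adjusted p = 0.017), and log2 fold changes were 1.61 in SPF WT (adjusted p = 0.001) and 1.42 in GF LKO mice (adjusted p = 0.007). The difference of Alas1 between SPF LKO and SPF WT mice was -0.02 on the log2 scale. It stayed past the threshold in 3 of 6 fits with a library left out, with adjusted p of at most 0.061. Alas1 was the single call among 14 genes of iron, heme and metal handling and among 22 of xenobiotic metabolism. In the former list Mt1, a metallothionein, had a log2 fold change of 1.94 and an adjusted p of 0.20.

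The largest increases with an average of at least 1 on the log2 CPM scale were led by Gm15611, a long noncoding RNA that overlaps no other annotated gene, at 7.11, 5.52 and 10.5 CPM at ZT10 and 2.15, 0.875 and 1.44 CPM at ZT22 (2.37 ± 0.38, adjusted p = 0.010). Ces2b, a carboxylesterase, was at 3.31, 8.96 and 5.26 CPM at ZT10 and at 1.22, 1.15 and 1.49 CPM at ZT22 (2.18, adjusted p = 0.021). The rule for naming the largest changes required times without overlap, so the separation of both genes follows from that choice.

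Gpcpd1, which breaks down glycerophosphocholine, was at 150, 177 and 114 CPM at ZT10 and at 68.1, 49.1 and 68.7 CPM at ZT22 (1.25, adjusted p = 0.020), and rose in SPF WT (2.14) and GF LKO mice (1.68) as well. Mcm10, a DNA replication factor, was at 84.2, 44.3 and 52.8 CPM at ZT10 and at 15, 18.1 and 28.6 CPM at ZT22 (1.56, adjusted p = 0.047), and B3galt1, a galactosyltransferase, at 119, 84.2 and 63.9 CPM and at 23.5, 38.2 and 52 CPM (1.24, adjusted p = 0.025). Fam124a was at 38, 30.4 and 35.2 CPM and at 14.3, 12.7 and 15.5 CPM (1.29, adjusted p = 0.020). Gm14097 and Gm10804 rose too (1.70 and 1.99), but their spans overlap a coding gene on the other strand, Shld1 and Cd82. Counted without strand, they may take in reads of the partner or lack reads dropped as ambiguous.

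Among the largest decreases, Chrna4, a nicotinic receptor subunit, was at 0.651, 0.453 and 0.487 CPM at ZT10 and at 4.22, 4.46 and 3.31 CPM at ZT22 (-2.90 ± 0.70, adjusted p = 0.049, past the threshold in 0 of 6 fits with a library left out). Clic3, a chloride channel protein, was at 0.801, 0.905 and 0.341 CPM and at 5.45, 3.14 and 3.82 CPM (-2.58 ± 0.43, adjusted p = 0.010, past it in 5). Both were separated by time, which the rule for naming them required, and were low throughout. Clic3, like Dbp, overlaps a coding gene on the other strand.

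Ngfr (-1.53, adjusted p = 0.017), a neurotrophin receptor, and Heyl (-1.42, adjusted p = 0.020), a target of Notch, fell at levels of 0.601 to 6.80 CPM. Nat8f5 (-1.63) and the processed pseudogene Gm7463 (-1.81) fell as well, and their counts are uncertain because Nat8f5 overlaps its relative Nat8f6 and Gm7463 lies within Akr1d1. Fst, follistatin, which binds activins, was at 4.71, 3.35 and 5.50 CPM at ZT10 and at 17.2, 18.7 and 6.37 CPM at ZT22 (-1.64, adjusted p = 0.047), so that 1 of the ZT22 libraries came close to the ZT10 values.

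In hormones and the growth hormone axis, Igf1, the growth factor that liver releases to the blood, rose at ZT10 and Fst fell, and 16 of 18 genes did not pass. Igf1 was at 1372, 1260 and 1274 CPM at ZT10 and at 921, 715 and 856 CPM at ZT22 (0.65 ± 0.14, adjusted p = 0.032). The change of Igf1 was 0.34 in SPF WT (adjusted p = 0.16) and 0.07 in GF LKO mice (adjusted p = 0.82). Its difference from the change in SPF LKO mice passed the test for neither group.

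Of 27 genes of ribosome biogenesis, 3 rose at ZT10, 0 fell and 24 did not pass, with a median of 0.20. Of all genes tested, 0.350% rose and 0.600% fell. Npm1, a nucleolar chaperone, was at 117, 112 and 135 CPM at ZT10 and at 95.5, 66.8 and 81.2 CPM at ZT22 (0.58, adjusted p = 0.034), Ncl, nucleolin, at 334, 279 and 352 CPM and at 254, 214 and 247 CPM (0.43, adjusted p = 0.032), and Rrs1, a ribosome assembly factor, at 26.8, 17.6 and 20.3 CPM and at 10.7, 13.4 and 13.7 CPM (0.78, adjusted p = 0.023). The 3 calls were lost without ZT10 replicate 1, ZT10 replicate 3 or ZT22 replicate 2.

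Single calls stood in 4 further lists. Of 12 clock-linked outputs Ppard, a nuclear receptor, fell at ZT10, from 47.1, 37.7 and 53.2 CPM at ZT22 to 19.3, 25.5 and 21.2 CPM (-1.06 ± 0.18, adjusted p = 0.010, past the threshold in 5 of 6 fits with a library left out). Of 11 genes of autophagy and lysosome Bnip3, a mitophagy receptor, rose (41.2, 38.5 and 39.5 CPM against 26.9, 27.7 and 24.6 CPM, 0.59, adjusted p = 0.047), and of 15 immediate early and serum response genes Tubb2a, a tubulin, fell.

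Of 12 cell cycle genes Myc passed the test with a lower level at ZT10, and was the single call whose times overlapped. It was at 3.41, 2.71 and 2.78 CPM at ZT10 and at 12, 45.1 and 3.35 CPM at ZT22 (-2.76 ± 0.64, adjusted p = 0.040), and without ZT22 replicate 2 the value was -1.38 (adjusted p = 0.33). A single library therefore set the size of the Myc difference.

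Tubb2a was at 47.9, 44.5 and 55.5 CPM at ZT10 and at 91.8, 93.8 and 85.2 CPM at ZT22 (-0.87 ± 0.15, adjusted p = 0.010), past the threshold in 5 of 6 fits with a library left out. It fell further in SPF WT mice (-2.92), where it was at 9.71 ± 2.04 CPM (SD, n = 3) at ZT10 and 73.4 ± 17 CPM at ZT22, and fell by 1.30 in GF LKO mice (adjusted p = 0.000165). The mean levels of the genotypes lay further apart at ZT10 than at ZT22. Its promoter is shown as that of a gene called in all 3 groups that holds a cAMP response element, TGACGTCA in capitals, 59 bases before the start (250 bases, GRCm38.p6, chr13:34078009-34078258, minus strand). The element occurs in 1.79% of all windows, and in 2.83% of the windows matched to tested genes (10491 of 14003 gene symbols had one).

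Tubb2a: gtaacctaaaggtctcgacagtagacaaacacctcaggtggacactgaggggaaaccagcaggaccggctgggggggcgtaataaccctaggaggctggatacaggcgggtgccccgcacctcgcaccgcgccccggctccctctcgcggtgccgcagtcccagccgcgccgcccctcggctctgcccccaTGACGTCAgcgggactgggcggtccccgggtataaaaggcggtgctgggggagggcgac

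No gene passed the test in the other 13 lists with 2 or more genes, beside the cold-inducible pair. These were heat shock chaperones (18 genes, median 0.04), glucocorticoid-responsive genes (15, median 0.54), bile acid synthesis and transport (14, median 0.00), gluconeogenesis and insulin response (13, median 0.07), glycogen metabolism (10, median -0.14), glycolysis and glucose uptake (16, median -0.06), amino acid catabolism (20, median 0.13), the urea cycle (7, median -0.09), endoplasmic reticulum folding and stress (22, median -0.04), the amino acid response (9, median 0.09), apolipoproteins (10, median 0.22), acute phase proteins (11, median 0.24) and interferon-stimulated genes (12, median -0.17).

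Within these lists the genes of smallest p still had sizeable fitted values. Hspa1a, the inducible HSP70, was at 2.85, 2.31 and 3.8 CPM at ZT10 and at 0.422, 0.676 and 0.976 CPM at ZT22 (log2 fold change 2.10, adjusted p = 0.12). Klf9, induced by glucocorticoids, was at 176, 152 and 166 CPM at ZT10 and at 83.0, 122 and 105 CPM at ZT22 (0.67, adjusted p = 0.085), and Fkbp5 at 37.5, 79.6 and 25.5 CPM and at 17.2, 19.7 and 19.9 CPM (1.33, adjusted p = 0.15). These genes did not overlap between the times, which held for 23.6% of all genes tested. None of them passed the test at 3 libraries a side.

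Cyp8b1, which sets the ratio of bile acids, had a log2 fold change of -1.04 (adjusted p = 0.13) and Nr0b2, the bile acid-induced repressor SHP, one of 0.84 (adjusted p = 0.19). Pfkfb3, a regulator of glycolysis, was at 39.3, 50.9 and 48.8 CPM at ZT10 and at 7.51, 7.60 and 28.3 CPM at ZT22 (1.68, adjusted p = 0.11). Slc37a4, the glucose 6-phosphate transporter, was at 0.54 (adjusted p = 0.13), Irs1 at -0.71 (0.11), Gyg at 0.46 (0.11), Kmo at 0.37 (0.18), Ass1 at -0.39 (0.16), Calr at -0.44 (0.16), Aars at -0.26 (0.20), Apoa5 at 0.44 (0.21), Fgb at 0.46 (0.086) and Oasl1 at -1.03 (0.055). None of these genes passed the test.

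Markers of other liver cells did not pass the test in any list, and of the more abundant lists beside hepatocytes only the endothelial sum separated the times. All 7 endothelial markers had negative log2 fold changes (median -0.45), and their sum was 186 to 209 CPM at ZT10 and 219 to 293 CPM at ZT22, without overlap. Stellate cell markers summed to 344 to 438 CPM at ZT10 and 388 to 550 CPM at ZT22, Kupffer cell markers to 193 to 286 and 244 to 272 CPM, and cholangiocyte markers to 70.6 to 136 and 57.4 to 111 CPM. Erythroid markers ranged from 161 to 702 CPM at ZT22 and from 207 to 378 CPM at ZT10. T cell, B cell and neutrophil markers summed to at most 8.96 CPM, with Ly6g at 0 counts in all 6 libraries, and acinar, adipocyte and muscle markers to at most 0.929 CPM. The part of the endothelial and hepatocyte marker sums in the genes that differed between the times was not tested.

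Set beside SPF WT mice, the comparison in LKO mice gave fewer calls, by a margin that depended on the test and its threshold. In SPF WT mice 958 genes (6.84%) differed between ZT10 and ZT22, 432 higher and 526 lower, and the count was 509 without SPF WT ZT10 replicate 3 and 549 without SPF WT ZT22 replicate 2. DESeq2 called 1229 genes in SPF WT and 475 in SPF LKO mice, and edgeR without the filter on low counts 1367 and 713. At an unadjusted p under 0.05 by the main edgeR test there were 2977 and 2398 genes. Of the 133 genes of SPF LKO mice, 53 were also called in SPF WT mice, all the same way, which was 39.8% of the LKO calls and 5.53% of the WT calls. In direction alone 113 of the 133 genes (85.0%) matched SPF WT mice, against 64.7% of all genes tested. Over the genes called in SPF WT mice, chosen for their size there, the median size of the log2 fold change was 0.78 in WT and 0.26 in LKO mice. Over the 133 genes, chosen in SPF LKO mice, it was 0.88 in SPF LKO and 0.51 in SPF WT mice. Over the genes called in GF LKO mice it was 0.71 there and 0.26 in SPF LKO mice. Such medians thus depend on the group in which the genes were chosen.

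Tested directly, the change from ZT22 to ZT10 differed between SPF LKO and SPF WT mice for 167 genes (1.19%), 104 with a higher log2 fold change in LKO mice and 63 with a lower one. The change was smaller in size in LKO than in WT mice for 151 of the 167 genes and larger for 16. Of the 167 genes, 140 were called in WT mice and not in LKO mice, 7 in both, 7 in LKO mice and not in WT mice, and 13 in neither. Of the 19 core clock genes, 10 differed between the genotypes, namely Arntl, Clock, Npas2, Per2, Per3, Cry1, Cry2, Dbp, Tef and Nfil3. The count was 92 without SPF LKO ZT10 replicate 1, 96 without ZT10 replicate 3 and 106 without ZT22 replicate 2.

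The smallest p of this difference belonged to Clpx, a chaperone of the mitochondrial matrix protease, which was at 571, 506 and 610 CPM at ZT10 and at 537, 549 and 476 CPM at ZT22 in SPF LKO mice, with overlap. In SPF WT mice Clpx was at 80.7 ± 7.13 CPM (SD, n = 3) at ZT10 and 534 ± 90.6 CPM at ZT22, and the log2 fold changes differed by 2.85 ± 0.17 (adjusted p = 5.02e-10). LKO livers thus held Clpx near the WT level of ZT22 at both times. Asap2 (difference 2.49), Avpr1a, a vasopressin receptor (2.24), Lgalsl (1.77) and Pnrc1 (1.68) had the same pattern of a fall at ZT10 in WT mice and no call in LKO mice.

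In the other direction, Tef was at 274 ± 31.9 CPM at ZT10 and 47.1 ± 3.43 CPM at ZT22 (SD, n = 3) in SPF WT mice and differed by -2.11 ± 0.16 on the log2 scale from LKO mice (adjusted p = 2.18e-08). Per3 differed by -3.60, Wee1, a cell cycle kinase, by -2.50, Pcsk4 by -2.45, Cry2 by -1.29, Gys2, the liver glycogen synthase, by -1.22, and Ngef by -1.07. Each of these rose at ZT10 in SPF WT mice and had no call in LKO mice. For Npas2 the fitted difference of 6.17 rests on 2, 2 and 0 counts in the ZT10 libraries of SPF WT mice, against 287 to 426 counts in those of LKO mice.

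The 7 genes called in SPF LKO and not in SPF WT mice whose effects differed were Gm15611 (difference 3.41), B3galt1 (1.99), Rrs1 (1.20) and Myc (-3.98), and Zfp28 (-2.20), Slc25a37 (-1.0) and Ddo (-0.65), the last 3 named after their values were seen. Gm15611 was at 2.32 ± 0.287 CPM at ZT10 and 4.76 ± 2.67 CPM at ZT22 (SD, n = 3) in SPF WT mice, the opposite order to that in LKO mice, and B3galt1 at 27.1 ± 4.31 and 45.5 ± 2.31 CPM. Neither change in WT mice passed the test (adjusted p = 0.10 and 0.089). Ppard fell in both genotypes, by 1.06 in LKO and by 2.25 in WT mice (difference 1.19, adjusted p = 0.021).

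**Figure D4:**
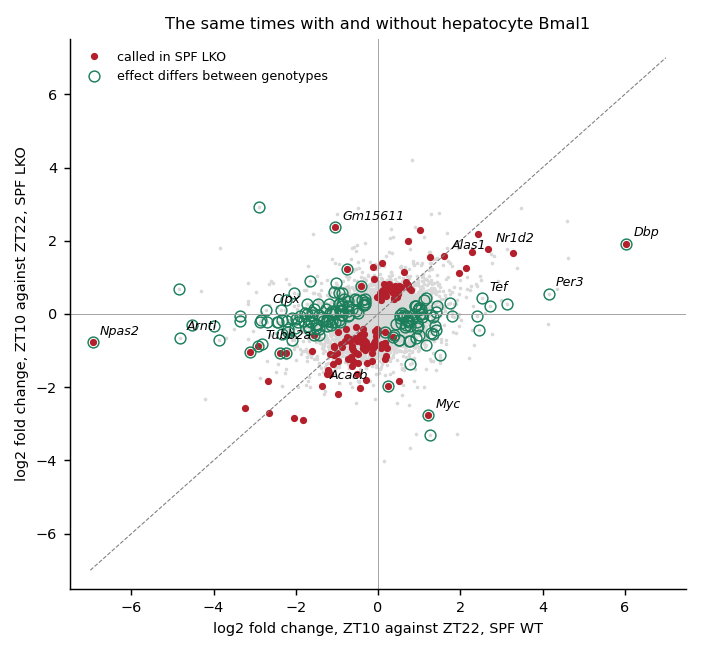
Log2 fold change of ZT10 against ZT22 in SPF WT mice (x axis) and SPF LKO mice (y axis) for each tested gene (grey), with the 133 genes called in SPF LKO mice in red, the 167 genes whose change differed between the genotypes circled, and equality as a dashed line. Most circled genes lie near 0 on the y axis and far from 0 on the x axis.

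GF LKO mice, which share no library with the SPF mice, had 774 genes (5.53%) that differed between ZT10 and ZT22, 424 higher and 350 lower. The direction matched in 130 of the 133 genes of SPF LKO mice (97.7%), against 60% of all genes tested. Of the 133, 63 were also called in GF LKO mice, all the same way, or 47.4% of the SPF calls and 8.14% of the GF calls. Nr1d2 was at 18.8 ± 1.27 CPM at ZT10 and 8.01 ± 0.962 CPM at ZT22 (SD, n = 3) in GF LKO mice, and Alas1, Acly, Acacb and Gpcpd1 were called there as well.

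The difference of the change between SPF LKO and GF LKO mice passed the test for 0 genes (0%) by edgeR, with 1511 genes at an unadjusted p under 0.05 and a smallest adjusted p of 0.25, and for 13 genes by DESeq2. The unequal numbers of calls in SPF and GF LKO mice are thus not shown to be a difference between them. The count of GF LKO calls was 237 without GF LKO ZT10 replicate 3, 251 without GF LKO ZT22 replicate 2 and 298 without GF LKO ZT22 replicate 3.

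The other 4 times of SPF LKO mice placed ZT10 and ZT22 within the day. At ZT14 replicate 2 and at ZT18 replicate 1 the libraries stood apart from their group, with Npas2 at 0.222 and 1.80 CPM against 24.0 to 36.7 CPM in the other 4 libraries, and they were left out of the means given here. Of the 49 genes higher at ZT10, 41 had their highest mean of the 6 times at ZT10 (36 with all 18 libraries) and 32 their lowest at ZT22 (30 with all 18). Of the 84 genes lower at ZT10, 55 had their highest mean at ZT22 (51 with all 18) and 65 their lowest at ZT10 (67 with all 18). These extremes follow in part from the choice of the genes at these times.

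At the neighbouring times, which did not enter the choice, the mean at ZT6 was above that at ZT18 for 38 of the 49 genes higher at ZT10 and below it for 61 of the 84 genes lower at ZT10, while 50.4% of all genes were higher at ZT6. Nr1d2 had means of 14.6, 24.9, 29.8, 13, 9.28 and 8.71 CPM from ZT2 to ZT22. Alas1 had means of 146, 152, 372, 291, 173 and 124 CPM. Both genes were highest at ZT10, although with all 18 libraries they had higher means at ZT14 (30.6 and 487 CPM).

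Lss had means of 78.3, 53.9, 44.9, 36.7, 75.7 and 115 CPM from ZT2 to ZT22, and Acacb of 46, 17.8, 19, 11.5, 33.1 and 74.8 CPM, with the low at ZT14 and the high at ZT22 in both. With all 18 libraries Acacb was at 30.2 CPM at ZT14 and 63.6 CPM at ZT18, and its low was at ZT6. Pdk4 had means of 52.9 CPM at ZT2, 44.3 CPM at ZT6 and 13.1 CPM at ZT10. Acly had means of 252 CPM at ZT2, 152 CPM at ZT6, 150 CPM at ZT10 and 378 CPM at ZT22.

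**Figure D5:**
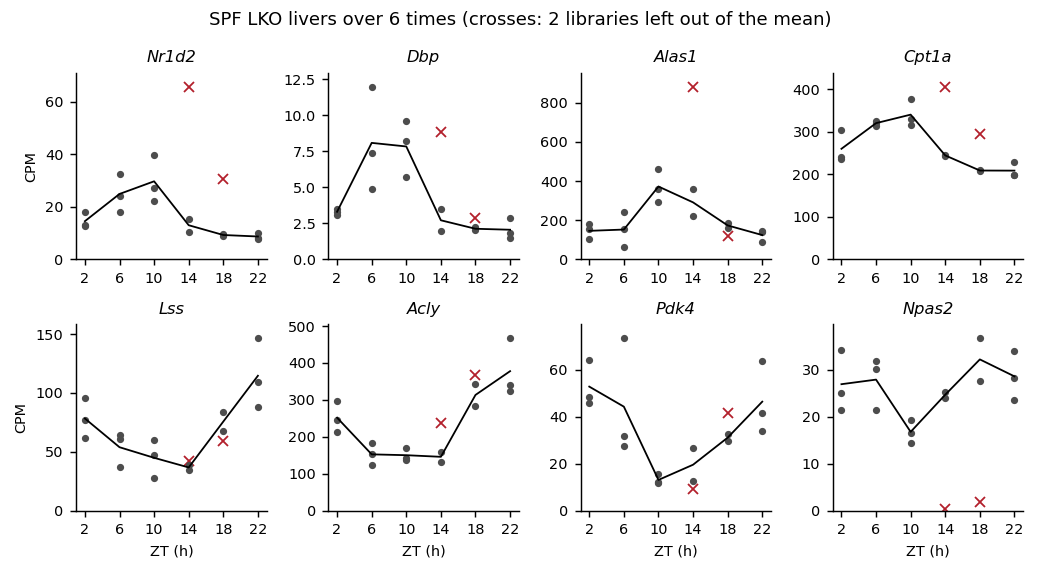
Level (y axis, CPM from 0) of 8 genes in each SPF LKO library over ZT (x axis, hours), with a line through the means. Crosses mark the 2 libraries left out of the means. Nr1d2, Dbp, Alas1 and Cpt1a are higher at ZT10 than at ZT22, and Lss, Acly, Pdk4 and Npas2 lower.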

How the data were processed

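Liver RNA of male mice was measured by RNA-seq in 72 libraries, of which the 24 of ZT10 and ZT22 entered the fit. The authors deposited raw counts per gene. Single-end reads had been aligned by them to mm10 (GRCm38) with STAR 2.6.1b, and exons of Ensembl release 97 counted with featureCounts 2.0.0 at its default settings, which ignore strand and drop multi-mapped and ambiguous reads. Libraries made with a kit that keeps strand were thus counted without it. Gene length, the other column, and 0 unused sample columns played no part. Samples were grouped by their labels, and symbols and positions came from GENCODE vM21 (55394 of 55573 identifiers).

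Counts were tested with edgeR 4.0.16 (R 4.3.3) on 8 group means that share the spread, with TMM factors, the filter on low counts by group (14004 genes kept), the quasi-likelihood test and Benjamini-Hochberg adjustment, two-sided, at 0.05. Depth was 17369927 to 22076113 counts per library in the fit, so low genes carry more counting error. The fit was tested on simulated data. Alternatives were DESeq2 1.42.0, its size factors, no filter, a block on replicate number, other sets of libraries and each library left out.

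The comparison, the 26 gene lists and the 12 marker lists were chosen with earlier results of these data known. Genes were named by rule: the core clock and cold-inducible lists, the 12 largest increases and 12 largest decreases called with a mean log2 CPM (0.5 added) of at least 1 and no overlap, up to 4 called genes of each other list (or the 2 of smallest p where fewer than 2 were called), and the 8 smallest p in each direction of the difference from SPF WT mice. Others are said to be chosen after their values were seen. Promoter windows came from RefSeq (GRCm38.p6, 250 bases before to 50 after the start, 95 of the 133 called genes matched), were searched on both strands, and are printed without the bases after the start. Motif shares over the called genes are not given because fewer than 80% had a window. Some genes that the rule names are not reported here.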

Additional observations from a re-analysis of the deposited data

Results flagged for a closer look

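The results below are named genes whose change from ZT22 to ZT10 was not the same in the genotypes under SPF conditions, by edgeR's test of that difference (adjusted p under 0.05). Values are log2 fold changes in LKO mice minus those in WT mice. Among clock genes the difference was 6.17 for Npas2, 4.18 for Arntl, 1.56 for Nfil3, 1.42 for Clock and 1.20 for Cry1, and it was -4.11 for Dbp, -3.60 for Per3, -2.11 for Tef, -1.87 for Per2 and -1.29 for Cry2. In SPF WT mice the first 5 fell at ZT10 and the other 5 rose.

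Among other genes that fell at ZT10 in SPF WT mice the difference was 2.85 for Clpx, 2.49 for Asap2, 2.24 for Avpr1a, 2.05 for Tubb2a, 1.77 for Lgalsl, 1.68 for Pnrc1 and 1.19 for Ppard. Of genes that rose there it was -2.50 for Wee1, -2.45 for Pcsk4, -1.22 for Gys2 and -1.07 for Ngef. Of genes whose change in SPF WT mice did not pass the test, it was 3.41 for Gm15611, 1.99 for B3galt1, 1.86 for Nr0b2, 1.20 for Rrs1 and -3.98 for Myc, the last resting on 1 library at ZT22. Groups of 3 are too small for a test of single outlying libraries.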

How the results depend on the processing

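The count of 133 genes for SPF LKO mice was 53 at a log2 fold change of at least 1, 713 without the filter, 475 with DESeq2 (47.2% of them higher at ZT10), 14 with the 12 SPF libraries and 37 with all 18 SPF LKO libraries. It was 294 with 16 SPF LKO libraries, without SPF LKO ZT14 replicate 2 and SPF LKO ZT18 replicate 1, an alternative chosen after seeing the data. It ran from 7 to 172 with 1 library left out. The count of 958 for SPF WT mice was 341 at a log2 fold change of at least 1 and 509 to 1083 with 1 library left out, and that of 774 for GF LKO mice was 207, 1252 without the filter and 237 to 855. The 167 genes that differed between SPF LKO and SPF WT mice were 555 without the filter, 285 with DESeq2, 111 with the 12 SPF libraries and 92 to 204 with 1 library left out. The 0 genes that differed from GF LKO mice were 229 without the filter, 13 with DESeq2, 2 with the 12 LKO libraries and 0 to 0 with 1 library left out. The cause was not tested. Replicate numbers did not pair the libraries (correlations of 0.058, -0.018 and -0.112 between same-numbered libraries), and with a replicate block the SPF LKO count was 104. Of 1340 values of 96 named genes, 21 changed direction, all in genes that did not pass the test. The ranges with 1 library left out were -0.058 to 0.019 for Clock, -0.29 to 0.13 for Per2, -0.14 to 0.11 for Hlf, -0.12 to 0.017 for Nfil3, -0.085 to 0.16 for Rbm3, -0.042 to 0.16 for Pnrc1, -0.24 to 0.12 for Pcsk4 and -0.090 to 0.057 for Ngef. With only the 6 SPF LKO libraries the values were -0.003 for Hlf and -0.018 for Ngef, and Ngef was at -0.0055 with the 12 SPF and -0.0019 with all 18 SPF LKO libraries. All 272 values of the 16 differences from SPF WT mice kept their call, but these genes were chosen for the smallest p of that difference. At 19836845 counts in the median library a transcript at 1 CPM rests on few reads.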

Other observations

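Several genes outside the lists were among the calls and are named here after their values were seen. Rdh11, a retinol dehydrogenase, was at 108, 46.9 and 61.3 CPM at ZT10 and at 156, 179 and 130 CPM at ZT22 (log2 fold change -1.10, adjusted p = 0.047), and Slc26a1, a sulfate transporter that overlaps a coding gene on the other strand, had means of 73.9 and 129 CPM (-0.80, adjusted p = 0.010). Cyb5b, a cytochrome b5, had means of 567 CPM at ZT10 and 849 CPM at ZT22 (-0.58, adjusted p = 0.031). Smad3, a mediator of TGF beta signals, was lower at ZT10 in SPF LKO mice (-0.84, adjusted p = 0.013) and had log2 fold changes of -0.06 in SPF WT and -0.33 in GF LKO mice. The difference of the Smad3 change from SPF LKO mice passed the test for neither group.

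Of genes higher at ZT10, Enpp2, which makes lysophosphatidic acid, had means of 128 and 80.6 CPM (0.66, adjusted p = 0.013), Nox4, an NADPH oxidase, of 102 and 66 CPM (0.63, adjusted p = 0.046), and Hopx of 55.8 and 33.1 CPM (0.75, adjusted p = 0.033). The snoRNA host transcripts Zfas1 (0.81), Snhg6 (0.83) and Epb41l4aos (0.96) were also higher at ZT10, where Zfas1 overlaps Znfx1 and Snhg6 overlaps Mcmdc2 on the other strand. Of the 133 genes, 122 are annotated as protein coding and 11 as other types.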
